A study of Mus musculus with 4 samples.

Results

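HOX genes encode homeodomain transcription factors that lie in 4 clusters, HOXA to HOXD. In vertebrate embryos the genes of a cluster are switched on in the order in which they lie along the chromosome, so the combination of HOX genes that a cell transcribes marks its level along the body axis and, for the posterior members, its position along the limb. Skeletal cells keep much of this code after birth: bones of the face and the front of the skull, made by HOX-negative neural crest, carry little HOX transcript, whereas bones of the throat, trunk and limbs carry the code of their place. HOX proteins bind DNA together with homeodomain partners of the TALE class (the PBX, MEIS and PKNOX families), and their chromatin is held off by Polycomb and held on by Trithorax complexes. The described members were the 38 HOX genes that were listed and found by gene name among the non-control probes of the array, with 42 probes on 60 spots, out of 35080 genes with a probe on the array.

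The cells were mouse primary osteoblasts, grown in 10% FBS and treated for 72 h with BMP2 (200 ng/ml) and LOXL2 (4 µg/ml) together, with BMP2 alone, with LOXL2 alone, or with neither protein. BMP2 is a growth factor that induces bone and cartilage, and LOXL2 is an enzyme of the lysyl oxidase family, released by cells, that links collagen fibres. The labels call the cells of both BMP2 arrays osteoblasts and those of the other 2 arrays pre-osteoblasts. They name neither the bone of origin nor the strain or age of the mice. Each treatment was measured on 1 single-colour Agilent array from 100 ng of total RNA, so no treatment was replicated, and an effect of BMP2 compares 2 arrays with it against 2 without it.

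All 4 arrays shared 1 slide and 1 scan time, and each treatment held 1 position on the slide, so position and treatment cannot be told apart. Between 60.4% and 62.2% of spots were well above background, and the 75th percentile of the intensity lay between 710.5 and 742.9, so the arrays were alike in depth. Of 12 osteoblast markers, 11 were well above background on at least 2 arrays, among them Runx2 and Col1a1, and 5 passed the test upwards under BMP2. Dmp1 was not well above background. For comparison with this list and the next ones, 10.3% of all genes passed upwards under BMP2 and 9.98% downwards. All 8 chondrocyte markers were higher under BMP2, with a summed intensity of 279211 with both proteins, 179498 with BMP2, 46157 with LOXL2 and 38932 untreated. Matn1 was well above background on the BMP2 arrays alone and passed the filter only through them, so its call is no support for the list. Among skeletal muscle markers, 1 of 5 tested was lower under BMP2 and Myf5 and Ckm were dim, with a summed intensity of 7831 and 8003 on the arrays with BMP2, against 16589 and 17139 without it. That sum was mostly Acta1 (7059 and 7343, against 15999 and 16496), while the other tested muscle markers had fitted changes above 0 and the list's median was 0.09. Among macrophage and leukocyte markers, 2 of 8 were lower, with sums of 23406 and 23940, against 29198 and 27403. Among endothelial markers 2 of 4 were lower and Tie1 and Emcn were dim, and among neural markers 2 of 6 were higher, 1 was lower and Sox2 was dim; their sums lay between 22057 and 22586 on all 4 arrays for the endothelial list, and were 14169 and 14774 with BMP2, against 18164 and 16631 without it, for the neural list. Kdr made up most of the endothelial sum and Snap25 most of the neural sum, and the median changes of the lists were -0.56 and 0.02.

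The HOX readout rested on 60-base probes, and those behind the largest BMP2 differences are given with the pair of probes that meet on opposite strands at Hoxa3. Positions are on mm9 per the file headers. The probe for Hoxa2, which sets the identity of the second pharyngeal arch, lay at chr6:52112595-52112654 on the minus strand. Those for Hoxd4, a patterning gene of the upper neck vertebrae, and Hoxd8 lay on the plus strand at chr2:74566866-74566925 and chr2:74545171-74545230. The Hoxa3 probe lay at chr6:52119087-52119146 on the minus strand, and a probe named ENSMUST00000155922 lay at chr6:52119107-52119166 on the plus strand. Capitals mark the 40 bases that these last probes cover in common, each from its own strand.
Hoxa2: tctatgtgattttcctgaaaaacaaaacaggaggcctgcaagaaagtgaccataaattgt
Hoxd4: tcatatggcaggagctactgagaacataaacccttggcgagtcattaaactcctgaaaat
Hoxd8: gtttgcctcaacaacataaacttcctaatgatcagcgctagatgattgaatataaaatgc
Hoxa3: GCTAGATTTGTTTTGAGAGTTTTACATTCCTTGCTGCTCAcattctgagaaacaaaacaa
ENSMUST00000155922: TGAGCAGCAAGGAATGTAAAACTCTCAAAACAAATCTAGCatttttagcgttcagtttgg

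HOX paralogs share a conserved homeobox, and a probe placed there could read several of them. The brighter Hoxb3 probe and the Hoxc11 probe encode a homeodomain helix motif, and whether these 2 probes also take signal from other paralogs was not tested; the other member probes did not encode it. Among the 42 member probes, the longest run that probes of different HOX genes had in common was 11 bases. The closest ungapped pair matched at 29 of 60 bases. The probes that were well above background on at least 2 arrays had a median GC content of 40.8% (18 probes), and the other 24 probes had 39.2%, so base composition was alike on both sides. Similarity between probes does not show how a probe matches the rest of another paralog's transcript.

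Of the 38 HOX genes, 16 (42.1%) gave a signal well above background on 2 or more arrays, against 68.5% of all genes on the array. Detection was concentrated in the anterior and middle parts of clusters A and B. In HOXA, 6 of 10 members were detected in this way, in HOXB 6 of 10, in HOXC 2 of 9 and in HOXD 2 of 9. The 14 genes that were well above background on all 4 arrays were Hoxa2, Hoxa3, Hoxa4, Hoxa6, Hoxa7, Hoxa9, Hoxb2, Hoxb3, Hoxb4, Hoxb5, Hoxb6, Hoxb9, Hoxd4 and Hoxd8, and all belonged to paralog groups 2 to 9. In those groups, 6 of 7 HOXA members, 6 of 8 HOXB members, 2 of 4 HOXD members and 0 of 5 HOXC members were well above background on at least 2 arrays.

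The posterior paralog groups 10 to 13 pattern the lumbar and sacral spine and the limb, with group 11 acting in the forearm and lower leg and group 13 in the hand and foot. Of the 12 members of these groups, 10 were not well above background on any array, and the other 2, Hoxc12 and Hoxc13, were so on 2 and 3 arrays. Those 10 were Hoxa10, Hoxa11, Hoxa13, Hoxb13, Hoxc10, Hoxc11, Hoxd10, Hoxd11, Hoxd12 and Hoxd13. Among the more anterior genes, Hoxa5, Hoxb1, Hoxb7, Hoxb8, Hoxc4, Hoxc8, Hoxc9, Hoxd1, Hoxd3 and Hoxd9 were likewise well above background on none, which makes 20 HOX genes in all. Hoxa11 was printed on 10 spots per array, so its dimness was seen repeatedly: 0 of 10 spots were well above background with both proteins, 0 with BMP2, 1 with LOXL2 (at an intensity of 15.4) and 0 untreated. Hoxb1, also on 10 spots, had no such spot on any of the 4 arrays. The number of HOX genes well above background was 16 with both proteins, 16 with BMP2, 16 with LOXL2 and 15 untreated, so the detected set hardly differed in size between treatments.

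**Figure D1:**
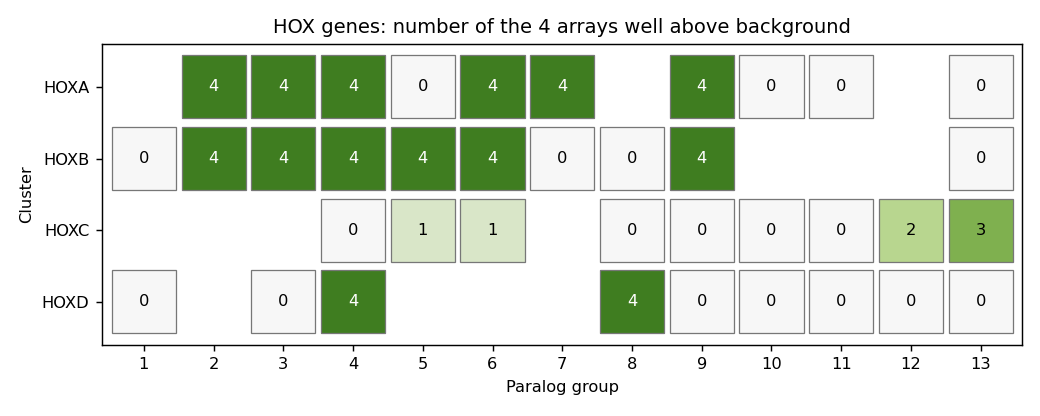
Each box is 1 of the 38 HOX genes, placed by cluster (rows) and paralog group (columns), and its number and shade give on how many of the 4 arrays the gene was well above background. The boxes with 4 arrays lie in groups 2 to 9 of HOXA, HOXB and HOXD, and none of the 12 boxes of groups 10 to 13 reaches 4.

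Signals were low. The members detected on all 4 arrays had intensities between 16.7 and 291.8 in arbitrary units, while the lowest intensity that counted as well above background was 12.9 to 14.6, depending on the array. The HOX genes detected on none lay between 2.60 and 13.4. At this level an absent call limits only what the array could see, and a dim gene was not detectable here rather than shown to be silent. Under the scanner software's weaker flag, a positive signal that differs from background, 25 HOX genes in place of 16 were detected on at least 2 arrays.

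HOXC gave the least stable detection. Hoxc5 had an intensity of 13.4 with both proteins, 24.0 with BMP2, 10.6 with LOXL2 and 9.94 untreated, and was well above background on the BMP2 array only. Hoxc6, a marker of the lower neck and upper chest level, had 5.26 with both proteins, 10.4 with BMP2, 10.3 with LOXL2 and 15.8 untreated, and was well above background on the untreated array only. With 1 spot per array and values at the edge of detection, these single detections have no check from a further array.

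The study's stated purpose was to find regulators of osteoblast differentiation under BMP2, and the HOX genes were read in that comparison. Hoxa2 and Hoxd4 fell with BMP2, and no HOX gene rose. The fitted change was -1.10 ± 0.09 (SE) on the log2 scale for Hoxa2 (2.15-fold lower) and -0.69 ± 0.11 for Hoxd4 (1.62-fold lower), with adjusted p = 0.0282 and 0.0498 in the limma fit over 24040 genes. Those 2 genes are 12.5% of the 16 HOX genes tested, against 9.98% of all genes that passed in that direction, so the share of HOX genes called lower was near the background. Upwards, 0 HOX genes passed, against 10.3% of all genes, and in either direction 20.3% of all genes passed. In these bulk samples, fewer cells that carry a transcript and less transcript per cell cannot be told apart.

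Hoxa2 is the most anteriorly expressed HOX gene, and in the mouse its loss turns second-arch skeletal elements into first-arch ones. Its intensity was 24.8 with both proteins and 30.3 with BMP2, against 56.7 with LOXL2 and 58.5 untreated. Both BMP2 arrays lay below both arrays without BMP2, with no overlap. The difference was -1.23 on the log2 scale for both proteins against LOXL2 and -0.98 for BMP2 against untreated, so it was present with and without LOXL2. With normexp background correction, which adds an offset of 50 before the log, the fitted Hoxa2 change shrank to -0.46, still past the threshold; with no filter on dim probes its adjusted p was 0.0939.

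Hoxd4 had an intensity of 52.2 with both proteins and 58.3 with BMP2, against 91.4 with LOXL2 and 82.9 untreated. The groups did not overlap, and the difference was -0.85 under LOXL2 and -0.54 without it. The call lay at the threshold: Hoxd4 passed under 4 of 10 other processing settings, with a change of -0.36 under normexp and between -0.70 and -0.65 under the others. Hoxd8, its neighbour in the cluster, had 140.5 with both proteins and 135.3 with BMP2, against 177.2 with LOXL2 and 191.2 untreated. The arrays with BMP2 were again the low ones, by -0.37 under LOXL2 and -0.53 without it, and the fitted change of -0.45 ± 0.07 missed the threshold narrowly (adjusted p = 0.0504; it passed under 4 of 10 other settings).

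**Figure D2:**
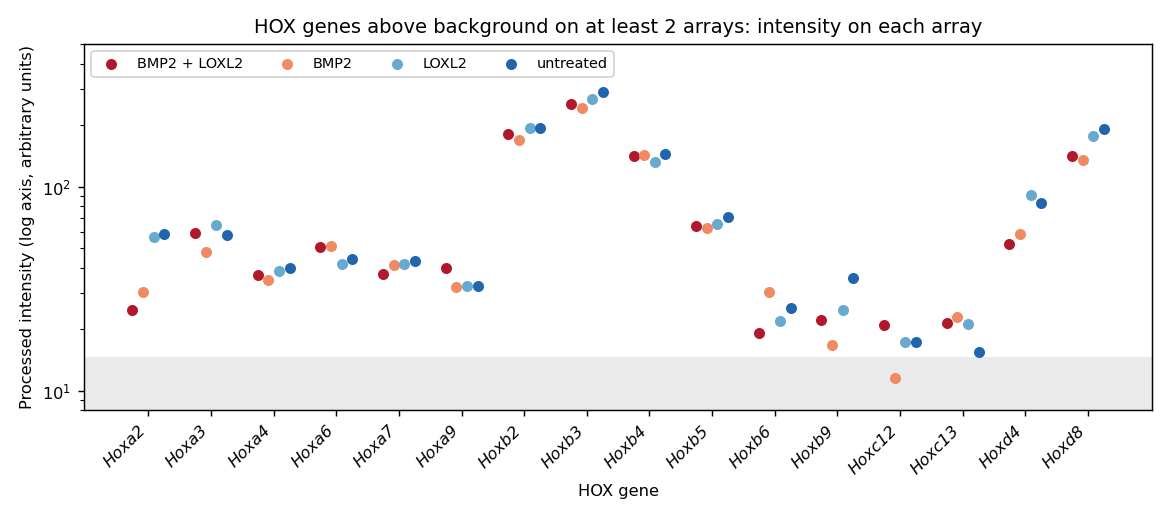
Processed intensity (log axis, arbitrary units) of the 16 HOX genes that were well above background on at least 2 arrays, with 1 point per array; from left to right both proteins, BMP2, LOXL2 and untreated. The grey band ends at 14.6, the highest of the 4 arrays' lowest intensities well above background, and Hoxa2, Hoxd4 and Hoxd8 show both BMP2 arrays below the arrays without BMP2.

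No other HOXA gene passed the test. Hoxa3, which patterns the throat skeleton and the thymus, had 59.2 with both proteins, 47.9 with BMP2, 64.5 with LOXL2 and 57.9 untreated, a fitted change of -0.23 ± 0.07 (adjusted p = 0.113). On the scaled values its BMP2 arrays lay below the others, by -0.16 under LOXL2 and -0.31 without it. Hoxa4, a neck-level gene, had 37.0 with both proteins, 34.8 with BMP2, 38.6 with LOXL2 and 40.1 untreated, and Hoxa7, active at chest level, had 37.1, 41.1, 41.9 and 43.4 in that order. Their fitted changes were -0.17 ± 0.07 and -0.16 ± 0.06 and did not pass the test.

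Hoxa6 was the one HOX gene with both BMP2 arrays above both others. It had 50.8 with both proteins, 51.1 with BMP2, 41.8 with LOXL2 and 44.3 untreated, a fitted change of 0.21 ± 0.06 (adjusted p = 0.0988). Hoxa9, which acts with Meis1 in blood progenitors and patterns the lower trunk, had 39.9 with both proteins, 32.0 with BMP2, 32.6 with LOXL2 and 32.4 untreated. Its groups overlapped, since the combined array alone was high.

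No HOXB gene passed the test for BMP2. Hoxb2, an anterior partner of Hoxa2 in the hindbrain, had 181.1 with both proteins, 169.1 with BMP2, 192.9 with LOXL2 and 192.9 untreated, and a fitted change of -0.17 ± 0.06 (adjusted p = 0.141). Hoxb4, known for expanding blood stem cells, had 141.7 with both proteins, 142.4 with BMP2, 132.4 with LOXL2 and 144.7 untreated, and a fitted change of 0.00 ± 0.06 (adjusted p = 0.966). Hoxb5, which helps to place the shoulder girdle, had 64.4 with both proteins, 62.4 with BMP2, 65.8 with LOXL2 and 70.9 untreated. The BMP2 arrays of Hoxb2 and Hoxb5 lay just below the others, and those of Hoxb4 lay among them.

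Hoxb3 was read by a pair of probes. The probe with the higher signal gave 253.1 with both proteins, 243.8 with BMP2, 267.8 with LOXL2 and 291.8 untreated, a change of -0.20 ± 0.07 (adjusted p = 0.155). The other gave 30.3 with both proteins, 29.4 with BMP2, 40.5 with LOXL2 and 44.9 untreated, a change of -0.55 ± 0.08, with adjusted p = 0.058 when every probe was fitted on its own. Both probes pointed down and neither passed the test, but the sizes differed. The probes lay at chr11:96207114-96207173 and chr11:96209002-96209061.

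Hoxb6 and Hoxb9, which mark the ribcage level, were read close to the detection limit. Hoxb9 had 22.3 with both proteins, 16.7 with BMP2, 24.9 with LOXL2 and 35.5 untreated, a fitted change of -0.66 ± 0.28 (adjusted p = 0.201). Its arrays did not overlap, but the BMP2 difference was -0.20 under LOXL2 and -1.12 without it. Hoxb6 had 19.1 with both proteins, 30.4 with BMP2, 21.9 with LOXL2 and 25.3 untreated, so its BMP2 arrays were the highest and the lowest of the 4.

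The 2 posterior genes with a measurable signal, both in HOXC, showed no shared BMP2 direction. Hoxc13, a regulator of hair and nail keratins, had 21.3 with both proteins, 23.0 with BMP2, 21.1 with LOXL2 and 15.4 untreated. Hoxc12 had 20.9 with both proteins, 11.5 with BMP2, 17.3 with LOXL2 and 17.3 untreated, and only the arrays with LOXL2 were well above background. Their fitted BMP2 changes, 0.26 ± 0.18 and -0.19 ± 0.26, were about the size of their errors.

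Over the 16 tested HOX genes the median BMP2 change was -0.17, against 0.02 over all genes. In 10 of them (62.5%) both arrays with BMP2 lay below both arrays without it, against 32.8% of all genes, and in 1 both lay above, against 38.1%; in 5 the groups overlapped. By cluster, the arrays separated downwards in 4 of 6 HOXA genes, 4 of 6 HOXB genes, 0 of 2 HOXC genes and 2 of 2 HOXD genes, with medians of -0.16, -0.16, 0.04 and -0.57. Compared pair by pair, 10 HOX genes were lower and 1 higher with BMP2 in both pairs of arrays, against 37.2% and 42.2% of all genes. At an unadjusted p under 0.05, 4 HOX genes were lower and 1 was higher, while 19.6% of all genes were lower and 42.9% passed in either direction. Spots of one probe repeated on an array gave a median SD of 0.151 to 0.153 on the log2 scale at intensities of 30 to 100 and 0.19 to 0.25 below 30, which covers error within an array and not between cultures. The fitted BMP2 change exceeded 2 such SDs, taken at each gene's intensity, in 5 of the 16 HOX genes. The other differences lay within that error. The members share 4 arrays and were counted here as a description, with no test over the list. How far the changes in the chondrocyte, muscle, macrophage, endothelial and neural markers given above take part in these HOX differences was not tested.

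**Figure D3:**
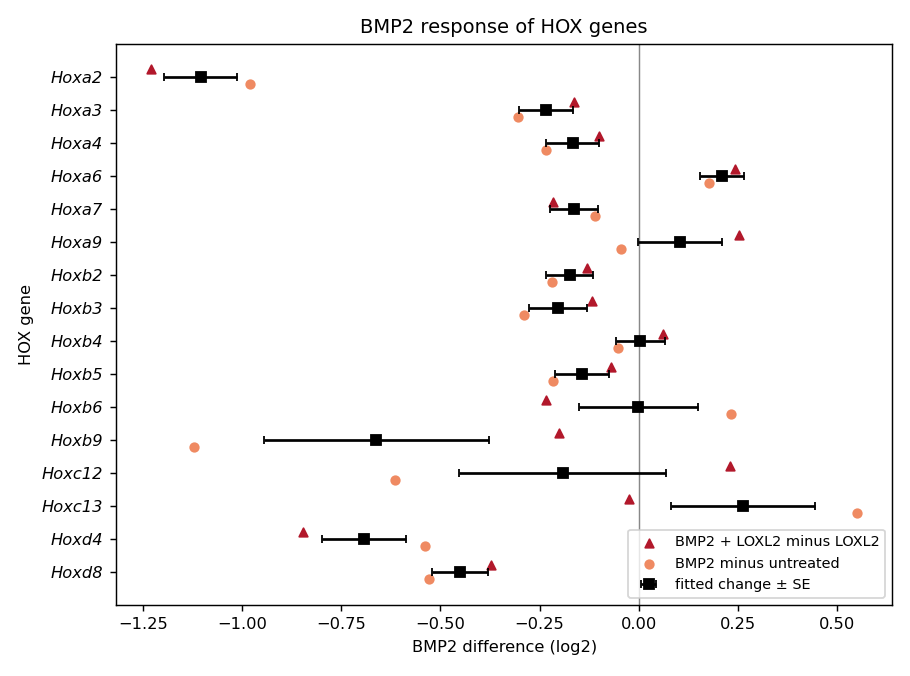
BMP2 difference (log2) for the 16 tested HOX genes, in cluster order. Triangles give both proteins minus LOXL2, circles BMP2 minus untreated, and squares with bars the fitted change ± SE from limma; Hoxa2 stands farthest to the left, at -1.10, and 10 genes have both single differences below 0.

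No HOX gene passed the test for LOXL2 in the limma fit. The smallest adjusted p among the 16 was 0.79, and 0 had an unadjusted p under 0.05; over all genes limma called 0 (0%) and 6.18% had an unadjusted p under 0.05. The median LOXL2 change was -0.06, and the fitted changes ran from -0.47 for Hoxb6 to 0.40 for Hoxc12. Arrays with LOXL2 were lower in both pairs for 5 genes (Hoxa2, Hoxa6, Hoxa7, Hoxb4 and Hoxb6), higher in both for Hoxa3 and opposite in the pairs for the other 10; over all genes, 28.8% were lower and 26.2% higher in both pairs. Hoxb6 differed by -0.24 without BMP2 and by -0.71 under it, and Hoxc12 by -0.02 without BMP2 and by 0.82 under it. Hoxc12 passed the filter through its LOXL2 arrays alone.

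The clusters also hold transcripts between and opposite the HOX genes. Among the probes that lay within the spans of the member probes but carried other names, 39 in all and 18 on the strand opposite to the HOX genes, 14 were well above background on at least 2 arrays, 12 of them represented a gene in the fit, and 5 of the 12 passed the test for BMP2, against 20.3% of all genes. Among those 5, the HOXB probe at chr11:96175777-96175836 passed the filter only through the arrays without BMP2, where it was high. Its call is therefore no support for that share. The transcripts named here from these 39 probes were chosen after their values were seen. The probe ENSMUST00000155922, printed above, had 17.4 with both proteins and 23.6 with BMP2, against 57.8 with LOXL2 and 50.9 untreated, and fell by 1.45 ± 0.20 on the log2 scale (adjusted p = 0.0438; -0.58 under normexp). The call was lost with quantile normalization, with every probe fitted and with no filter on dim probes (adjusted p = 0.0506, 0.0546 and 0.119). Hoxa3, read from the other strand over the same 40 bases, differed by -0.23 and did not pass the test.

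In HOXD, the opposite-strand probe ENSMUST00000100000, near Hoxd3, had 2600.4 with both proteins and 2585.5 with BMP2, against 3560.1 with LOXL2 and 3343.9 untreated, a change of -0.45 ± 0.06 (adjusted p = 0.0426, or 0.0558 with every probe fitted and 0.121 with no filter). The transcript AI448005, whose probe lay 2832 bases from that of Hoxd4, had 82.3 with both proteins and 102.9 with BMP2, against 141.7 with LOXL2 and 134.4 untreated, a change of -0.62 ± 0.13 that missed the threshold (adjusted p = 0.0748). These probes, like those of Hoxd4 and Hoxd8, were lower on both BMP2 arrays, which held for 32.8% of all genes. They were chosen after their values were seen, so they are no support for a change across the region. In HOXB, the called probes went both ways. A_55_P1998848, at chr11:96110121-96110180, had 98440 with both proteins and 92140 with BMP2, against 72409 with LOXL2 and 68787 untreated. It rose by 0.40 ± 0.05 (adjusted p = 0.0422, or 0.0564 with every probe fitted). The opposite-strand probe at chr11:96114981-96115040 rose by 0.49 ± 0.06 (adjusted p = 0.0428, or 0.0556 with every probe fitted). Another detected probe of the same name, at chr11:96114887-96114946, differed by 0.13 ± 0.07 and did not pass (adjusted p = 0.29 with every probe fitted). The called probes that rose lay in the long gap between the probes of Hoxb13 (chr11:96057854-96057913) and Hoxb9 (chr11:96137748-96137807). Their signals were far above those of the HOX genes detected on all 4 arrays, which reached 291.8. The probe at chr11:96175777-96175836 was well above background on both arrays without BMP2 alone. It had 11.6 with both proteins and 13.8 with BMP2, against 26.1 with LOXL2 and 23.4 untreated. The other probes of its name were not well above background on any array. In HOXC, 1 of 5 probes for HOTAIR, a long noncoding RNA of that cluster, was well above background, with 122.2 with both proteins, 103.3 with BMP2, 97.9 with LOXL2 and 116.8 untreated and no difference beyond the error (0.04, adjusted p = 0.875). Hoxa11os, the antisense partner of Hoxa11, had 35.7 with both proteins, 36.9 with BMP2, 33.1 with LOXL2 and 30.3 untreated (0.16 ± 0.08, adjusted p = 0.226), although Hoxa11 itself was not detected.

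Genes that flank the clusters did not share one direction. Of 17 tested, 2 were higher and 3 lower with BMP2, against 10.3% and 9.98% of all genes, with a median change of -0.02. Skap1, an adaptor of T cell adhesion beside HOXB, fell by 2.90 ± 0.07 (adjusted p = 0.0206), while none of the 6 tested HOXB genes passed the test. Skap2 and Snx10, a sorting nexin needed by osteoclasts, lie beside HOXA and rose by 0.53 ± 0.05 and 0.50 ± 0.05 (adjusted p = 0.0332 and 0.0342), opposite to Hoxa2. Atf7, beside HOXC, fell by 0.89 ± 0.11 (adjusted p = 0.0386), with -0.38 and no call when all its probes were averaged. Atp5g3 and Hnrnpa3, on the HOXD side, had -0.02 and 0.26 and did not pass.

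The TALE list held the PBX, MEIS and PKNOX partners of HOX proteins and also Tgif1 and Tgif2. Of its 11 genes, 1 (Tgif1) rose and 2 fell with BMP2, against 20.3% of all genes in either direction. The median change was -0.07. Meis1, a partner of HOX proteins in limb and blood, had 2177.7 with both proteins and 2326.1 with BMP2, against 3492.8 with LOXL2 and 3798.1 untreated, a change of -0.73 ± 0.05 (adjusted p = 0.0261). Meis3 fell by 0.37 ± 0.05 (adjusted p = 0.0478), or by 0.19 with no call when its probes were averaged. Tgif1, a TALE repressor that also restrains TGF-beta signalling, rose by 0.77 ± 0.06 (adjusted p = 0.0262). Among the PBX genes, the general HOX partners, Pbx2 (0.16), Pbx3 (-0.05) and Pbx4 (0.18) did not pass the test. Meis2 (-0.27) and Pknox2 (-0.46) pointed down without passing, and Pknox1 (0.10) and Tgif2 (-0.11) did not pass either.

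None of 23 Polycomb and Trithorax genes passed the test in the limma fit, against 20.3% of all genes, and 8 had an unadjusted p under 0.05, against 42.9% of all genes. The absence of calls hung on narrow misses. Closest to the threshold, all upwards, were Suz12 (0.34 ± 0.05, adjusted p = 0.050002), Ezh1 (0.38 ± 0.06, adjusted p = 0.0509) and Kdm6b (0.34 ± 0.06, adjusted p = 0.0574). Their median change was 0.08; Phc2, a Polycomb subunit with 21614 with both proteins, 19013 with BMP2, 16256 with LOXL2 and 16097 untreated, had 0.29 ± 0.07 (adjusted p = 0.089), and Men1, a Trithorax partner, had -0.16 ± 0.07 (adjusted p = 0.216). Retinoic acid, a regulator of anterior HOX genes in the embryo, had the largest fitted changes among the lists of HOX regulators. Of 16 tested genes of its synthesis, breakdown and receptors, 3 rose and 4 fell, against 10.3% and 9.98% of all genes.

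Crabp1, a binding protein for retinoic acid, had an intensity of 73.4 with both proteins and 118.6 with BMP2, against 2697.9 with LOXL2 and 3568.3 untreated, and fell by 5.09 ± 0.10 on the log2 scale (adjusted p = 0.0206). Aldh1a1, which makes retinoic acid, fell by 2.01 ± 0.07 (adjusted p = 0.0206). Aldh1a3, another enzyme of that step, rose by 2.46 ± 0.30 (adjusted p = 0.0397), with 485.9 with both proteins and 193.2 with BMP2, against 61.2 with LOXL2 and 48.3 untreated. So among the genes of synthesis and binding, members went both ways. The receptor Rarg (0.35) and the retinal reductase Dhrs3 (0.42) missed the threshold, and Cyp26a1, Cyp26c1 and Stra6 were dim.

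Other genes of positional identity were read beside the HOX genes. Of 19 cranial and facial factors, 18 were tested, 0 rose and 7 fell (10.3% of all genes rose and 9.98% fell), with a median change of -0.46. Pou3f3 fell by 0.91 ± 0.09 (adjusted p = 0.0318), or by 0.28 under normexp, but was read close to the detection limit. Its intensity was 20.2 with both proteins and 16.3 with BMP2, against 40.0 with LOXL2 and 27.6 untreated. Gsc, a jaw and middle ear factor, fell by 1.21 ± 0.07 (adjusted p = 0.0227). Gsc had 291.3 with both proteins and 261.1 with BMP2, against 624.8 with LOXL2 and 620.5 untreated, so its groups did not overlap. Six2, which acts in the facial skeleton, missed the threshold (-0.29, adjusted p = 0.0651).

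Of 12 vertebral and somite factors, 9 were tested and 3 passed, all downwards (9.98% of all genes fell), with a median change of -0.22 over the list. Meox2 fell by 1.21 ± 0.05 and its paralog Meox1, with which it shapes the somites, fell by 1.11 ± 0.05 (each with adjusted p = 0.0206), and Pax1, a gene of the vertebral bodies, fell by 0.66 ± 0.06 (adjusted p = 0.029). The limb and girdle list moved both ways, with 4 of 14 higher and 5 lower, against 10.3% and 9.98% of all genes. Emx2, needed for the shoulder blade, fell by 1.04 ± 0.11 and Tbx4, a hindlimb gene, fell by 0.67 ± 0.09 (adjusted p = 0.0338 and 0.0447), while Tbx2 rose by 0.77 ± 0.09 (adjusted p = 0.0397). Lhx2, counted among those 4, had 22.8 with both proteins and 28.3 with BMP2, and was not well above background on the arrays without BMP2 (8.74 with LOXL2 and 8.54 untreated), which makes it at least 1.86-fold higher; it passed the filter only through the BMP2 arrays, so its call is no support for the list. Gli3 (0.06) and Lmx1b (0.04) did not pass. The forelimb gene Tbx5 and the hindlimb gene Pitx1 were dim, as were Hand2 and Shh of the posterior limb bud. Of the caudal and trunk axis factors that act on HOX clusters in the embryo, 6 of 13 were tested and none passed in the limma fit (3 at an unadjusted p under 0.05, against 42.9% of all genes); Evx2, beside Hoxd13, had -0.26 and Lin28a 0.07, and Cdx2, Cdx4 and T were dim.

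**Figure D4:**
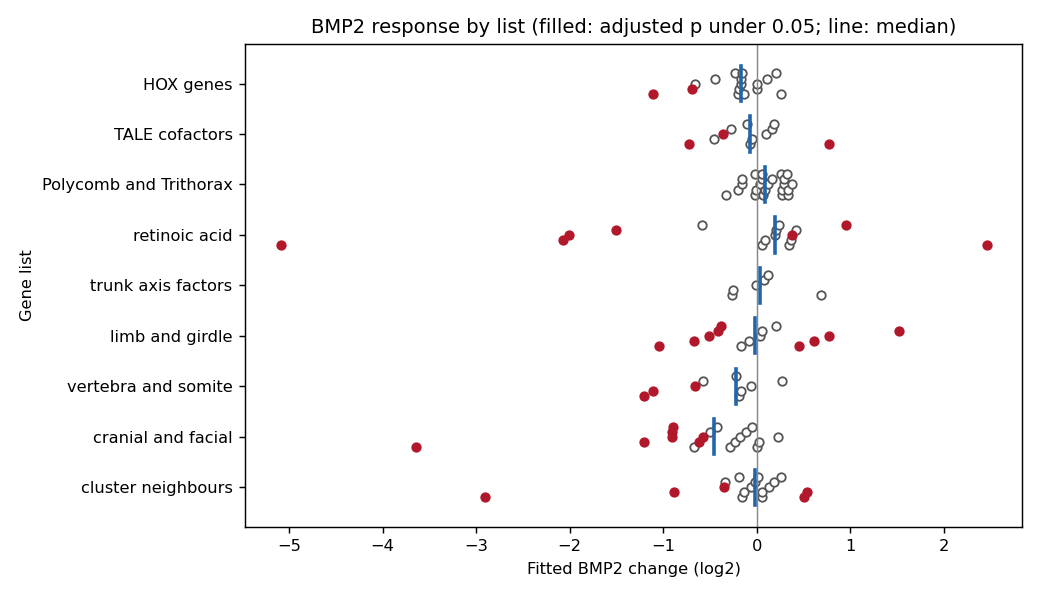
Fitted BMP2 change (log2) of each tested gene of the HOX group and of 8 lists of related genes, with 1 point per gene, filled where the adjusted p was under 0.05, and a line at the median. The HOX median lies at -0.17 and the cranial and facial median at -0.46, while the retinoic acid list spans from -5.09 to 2.46.

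The promoter of Hoxa2, the HOX gene with the largest change, is shown because it holds a motif bound by HOX proteins with PBX and one bound by SMADs, the DNA-binding proteins through which BMP2 signals. The window was picked for these matches, and whether either motif is bound in these cells was not tested. RefSeq's table of GRCm38.p6 gave 24 promoter windows for 22 of the HOX genes around annotated start sites, each 300 bases long. Searched on both strands, TGATTNAT, a composite PBX and HOX site, was in 2 of the 24 windows (8.33%, against 3.22% of 32851 promoters), those of Hoxa2 and of 1 start of Hoxd11. CAGACA, a single SMAD site, was in 4 (16.7%, against 21.0%), GGCGCC, a GC-rich site of BMP-regulated SMADs, in 5 (20.8%, against 11.9%), and GTCTAGAC, a SMAD palindrome, in 0 (against 0.213%). No motif contains another. The HOX windows were richer in G and C than all promoters (median 57.7% against 52.7%) and in CG pairs (median 14.5 against 7). The shares for the GC-rich GGCGCC were not adjusted for this, so they do not show an excess of that site in HOX promoters. Hoxa2 held TGATTNAT and CAGACA but not GGCGCC. The window of Hoxd4 held none of the 4 motifs, so the genes that fell shared no motif among those searched. The Hoxa2 window lies at chr6:52164782-52165081 on the minus strand, and capitals mark the TGATTNAT match, read on the opposite strand.
Hoxa2 promoter: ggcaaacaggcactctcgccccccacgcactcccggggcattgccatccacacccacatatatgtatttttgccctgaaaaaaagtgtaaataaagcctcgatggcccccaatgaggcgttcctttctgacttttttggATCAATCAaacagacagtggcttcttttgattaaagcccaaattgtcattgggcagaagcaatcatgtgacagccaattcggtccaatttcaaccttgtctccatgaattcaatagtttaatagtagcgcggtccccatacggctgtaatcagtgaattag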

How the data were processed

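Expression was measured on 4 single-colour arrays, 1 per treatment. The deposited scanner files hold 1 intensity per spot, made by the authors with Agilent's Feature Extraction software, whose version the submitters' processing notes give as 10.7.3.1, and background-subtracted per the file headers; a deposited value table of intensities, equal to the mean spot signal for 99.5% of probes within 0.1%, was used as an alternative. Control spots were left out, as were outliers among the other spots (109 to 144 per array), and 0 non-control spots were saturated. The log2 intensity had each array's 75th percentile subtracted, spots of a probe were averaged, and the probe with the highest mean represented a gene. Genes well above background on at least 2 arrays (24040) entered limma 3.58.1 under R 4.3.3 (with its package data.table at version 1.17.8), with BMP2 and LOXL2 as additive terms. This leaves 1 residual degree of freedom, the interaction, to which the empirical Bayes step added 1.72. P-values were two-sided and adjusted over all genes by Benjamini-Hochberg, with a threshold of 0.05. The fit was checked on simulated data. Differences between single arrays have no test. With 1 array per treatment, p-values measure the interaction between the 2 proteins and not the spread between cultures.

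The scanner files name probes by accession and symbol; 26762 of 55681 probes were named through a RefSeq table of GRCm38.p6, and 28919 kept the file's name. "Well above background" is the scanner software's flag, "dim" means not so on at least 2 arrays, and an "at least" fold sets the dim side to its own value or the lowest intensity well above background, whichever is higher. Each HOX gene above background on at least 1 array was named; from each list of related genes, the called genes with the largest changes and the uncalled genes with the highest signal were named by a fixed rule, and the TALE list in full; some genes that this rule names are not reported here. The HOX genes, lists and tests were chosen with earlier results of these data known. Alternatives changed the background correction, scaling, filter, probe rule, variance settings and model terms.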

Additional observations from a re-analysis of the deposited data

Results flagged for a closer look

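The BMP2 difference without LOXL2 and the same difference under LOXL2 had opposite signs for 5 of the 16 tested HOX genes. The difference between the 2 was not tested, since each rests on 1 pair of arrays. Under LOXL2, Hoxa9 differed by 0.254 on the log2 scale, and without LOXL2 by -0.0457. Hoxb4 differed by 0.0607 under LOXL2 and by -0.0524 without it. Hoxb6 differed by -0.23 under LOXL2 and by 0.23 without it. The largest gaps were in the HOXC pair, which was read close to the detection limit: Hoxc12 differed by 0.23 under LOXL2 and -0.61 without it, and Hoxc13 by -0.0243 under LOXL2 and 0.55 without it. None of these 5 genes passed the test for either protein in the limma fit.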

How the results depend on the processing

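The number of HOX genes called lower with BMP2 was 2. It was 1 with quantile normalization, median centring, the mean of all kept probes, the deposited value table or every probe fitted, 3 with normexp, the filter on all 4 arrays, trend and robust variance settings or the other protein left out, and 0 with no filter on dim probes, where limma called 0 of 35077 genes, 9259 genes and 3 HOX genes downwards had an unadjusted p under 0.05 and the smallest adjusted p was 0.09. Hoxa2 passed in 9 of 10 alternatives (-1.11 to -0.46; adjusted p 0.00179 to 0.0939), Hoxd4 in 4 (-0.70 to -0.36; 0.00576 to 0.13) and Hoxd8 in 4 (-0.45 to -0.34; 0.00693 to 0.134). Over all genes, 4883 passed for BMP2, 9086 with normexp and 10388 with trend and robust variance settings; the last called 14 for LOXL2. The positive-signal flag detected 25 HOX genes in place of 16. Some fitted changes turned sign. Hoxb4 went to -0.0003 with the value table, and Hoxb6 to 0.0137 with normexp, 0.0676 with quantile normalization and 0.0059 with median centring. Pbx4 went to -0.0096 with normexp and Kdr to 0.1095 with averaged probes. The change of Sparc became 0 with quantile normalization. The cause was not tested. No scaling moved the all-gene median by over 0.1. No paired analysis was possible because each treatment had 1 array. The number of arrays and intensities close to background limit what could be detected.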
